A study of Verbena bonariensis with 6 samples.

Results

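ZAT-type zinc fingers were examined in leaves of Verbena bonariensis (cultivar Finesse) after cold. They were taken from the deposited table as every cluster of the C2H2 family whose best match in the NR or the Swissprot protein database carries a ZAT number, AZF or ZPT in its name. This gave 33 of 572 C2H2 clusters and of 9740 clusters in all. A cluster is a transcript model assembled by the authors, and the 33 clusters fall on 17 best matches (NR proteins of other species). The seedlings of both groups were 3 months old and grown in a greenhouse at 25°C by day and 16°C by night under a 16 h photoperiod. The cold group held 3 libraries from seedlings then given 24 h at 4°C followed by 4 h of freezing at -4°C. The control group held 3 libraries from seedlings left in the greenhouse. The labels name no transgene or mutation, and they call the libraries of a group biological replicates without saying how many plants each one holds.

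C2H2 proteins of the ZAT and AZF kind bind DNA through separate zinc fingers, and many of them carry an EAR motif through which they repress transcription. In Arabidopsis, ZAT10 (also called STZ) and AZF2 are repressors induced by salt, drought, cold and abscisic acid, and ZAT12 is a central factor of the responses to reactive oxygen and to cold. The ZAT genes of the wider family, such as ZAT4, ZAT5 and ZAT9, have been studied less. All 33 clusters were assigned a C2H2 zinc finger domain by the authors' Pfam search. For 31 of them the name is that of a plant ZAT or AZF protein. Cluster-14918.83855 and Cluster-14918.83857 entered through the asparagine-rich protein AZF1 of baker's yeast, which shares only the letters of its name with the plant AZF proteins, and their NR matches are proteins of the green alga Bathycoccus prasinos. They are described apart, as yeast AZF1-named clusters. No sequence of any cluster was at hand, so none is shown.

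The table held 722556 to 791041 estimated counts in a cold library and 991180 to 1213366 in a control library, which is 5.52% to 5.53% and 5.85% to 5.86% of the reads of the whole library. It lists transcription factors and regulators only, so the tissue could be checked only by such genes. Leaf markers (GLK genes, which drive chloroplast development, YABBY and KANADI) summed to 145 to 156 FPKM (fragments relative to cluster length and library reads) in cold and 172 to 180 in control. Guard cell markers summed to 16.1 to 20.1 in cold and 13.4 to 14.5 in control. The root hair factors stood at 3.86 to 4.97 in cold and 3.96 to 4.23 in control, no cluster was named after the root factors PLETHORA or WOX5, and the floral factor APETALA3 had at most 0.08 FPKM in cold and 1.20 to 1.83 in control. The part of these other cells in the results was not tested. Levels below are normalized CPM, which are counts scaled to the reads of the table (CPM) with TMM factors. Adjusted p values come from the quasi-likelihood test of edgeR, with the Benjamini-Hochberg method over all features tested, log2FC is the log2 fold change of cold over control, and SE is its standard error. Reads of 1 gene can be divided between similar clusters, so counts were tested both by cluster and after summing over all clusters of a best match. The scaling factors were estimated in each of these fits, so levels of sums are close to, but not exactly, the sums of cluster levels. In bulk leaves, fewer cells of a type and less RNA per cell cannot be told apart.

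Of the 17 best matches 15 had enough counts to be tested, of which 6 rose and 6 fell in cold (adjusted p under 0.05). Over all 2296 sums tested 34.6% were called higher and 37.7% lower, 72.3% in all, so the shares of the ZAT-type factors, 6 of 15 in each direction, lay near those of the whole table. Cold and control libraries did not overlap in 13 of the 15, against 77.8% of all sums. With the reads of the whole library as the scale, which lowers the median of all sums from -0.08 to -0.44 on the log2 scale, 642 sums of the table were higher and 1088 lower, against 795 and 866 with TMM scaling. The median log2FC of the 15 sums was 0.37 and that of all sums -0.08. By cluster, the test covered 24 of the 33, and 9 rose and 7 fell, while 21.9% of all 5004 tested clusters were called higher and 23.6% lower. The libraries of the groups did not overlap in 16 of the 24, against 63.9% of all clusters. These 24 clusters had a median log2FC of 0.74, and all clusters one of -0.14. Among the 24 are 6 clusters of 1 best match, AZF2-like XP_011092508.1, so the median by cluster counts that match 6 times. Several of the 9 higher clusters are also of that match, so the count by cluster is not one of separate matches. Of the other C2H2 clusters 31 were higher and 38 lower of 209 tested, with a median of -0.27. By sum, 37 of the other C2H2 matches were higher and 39 lower of 132 tested, with a median of -0.14. The 9 clusters that could not be tested held 3.66 to 45.5 counts over all 6 libraries.

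**Figure D1:**
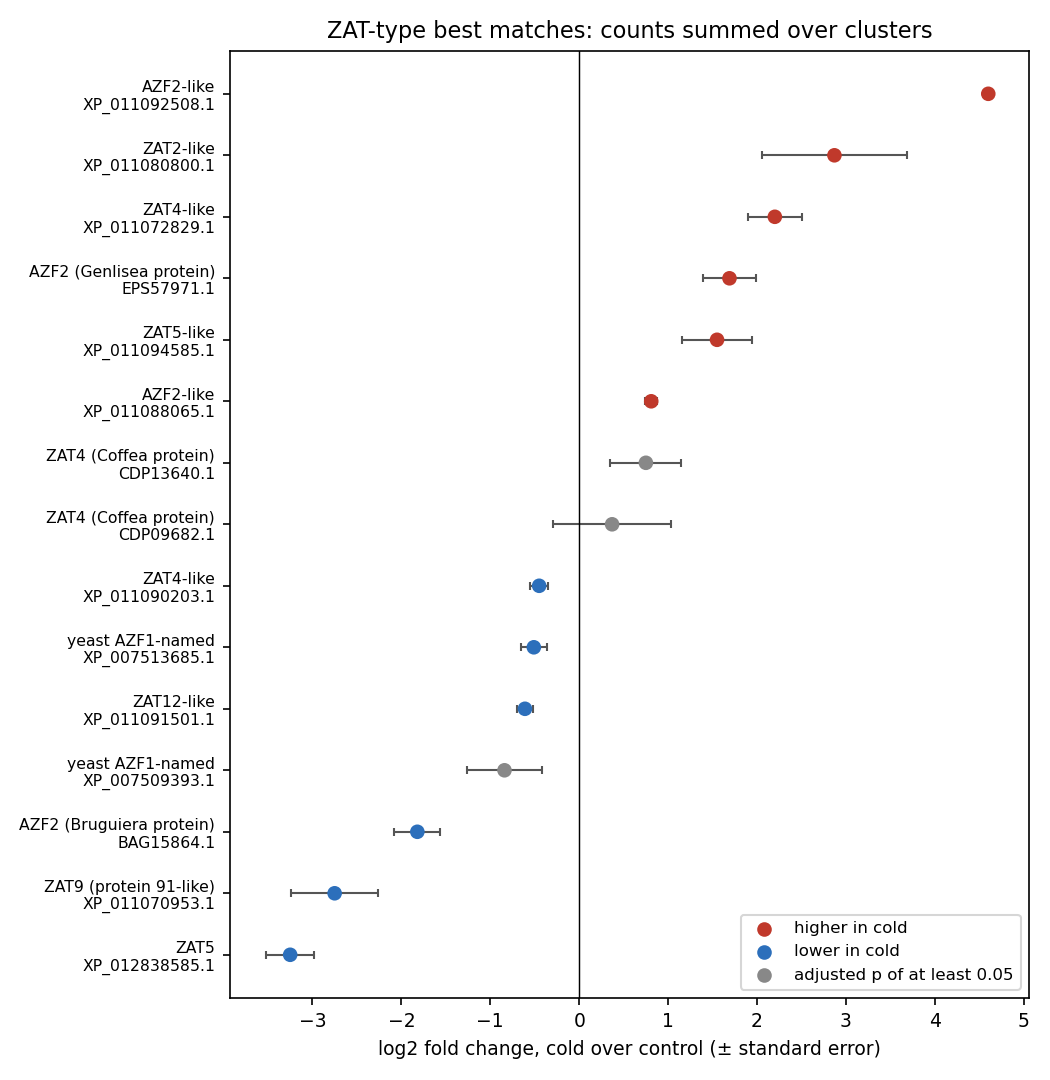
Log2 fold change of cold over control for the 15 tested best matches, with counts summed over the clusters of each (points, coloured by call; bars, standard error from edgeR). AZF2-like XP_011092508.1 stands at 4.60 and ZAT5 XP_012838585.1 at -3.25, and the ZAT12-like, the larger ZAT4-like and the yeast AZF1-named matches lie between -0.84 and -0.45.

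AZF2-type factors held the largest change. The AZF2-like protein of Sesamum indicum XP_011092508.1, the best match of 6 clusters, had 8548, 9367 and 9063 normalized CPM in the cold libraries, against 352, 378 and 380 in the control libraries. The cold libraries lay far above the control libraries, and within each group the libraries differed little. The mean was 8993 ± 414 in cold and 370 ± 15.7 in control (SD, n = 3 each), 24.3-fold higher in cold (log2FC 4.60, SE 0.05, adjusted p = 2.26e-10). The ratio of the summed counts, scaled to library size, had an exact 95% interval from 23.0 to 25.6, which covers counting error only. With any 1 library left out the log2FC lay between 4.55 and 4.65. It ranked 70 of 2296 sums of the table by log2FC and 2 of the 147 C2H2 sums. In cold this best match held 78.9%, 80.2% and 79.1% of the counts of all ZAT-type clusters, against 13.6%, 14.4% and 15.3% in control. The clusters outside it summed to 2235 to 2344 normalized CPM in cold and to 2258 to 2413 in control, ranges that overlap, so that the summed level of the 33 clusters, 11030 ± 386 in cold and 2734 ± 77.6 in control, differed between the groups mainly by this best match. As a share of the counts of the table, with no TMM factors, those other clusters came to 0.206% to 0.217% in cold and to 0.232% to 0.247% in control, which do not overlap.

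The 6 clusters of XP_011092508.1 are alike in layout. All have the same NR score of 443, and the authors placed the coding region on the reverse strand of each. It is 675 bases long in Cluster-14918.145073, Cluster-14918.145074 and Cluster-14918.129959, with 262 bases before it, and 660 bases long in Cluster-14918.129960, Cluster-14918.34919 and Cluster-14918.61250, with 296 bases before it. Each of these coding forms is joined to a stretch of 968, 957 or 922 bases after the coding region, so that by these lengths the 6 clusters are all combinations of 2 fronts and 3 ends.

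**Figure D2:**
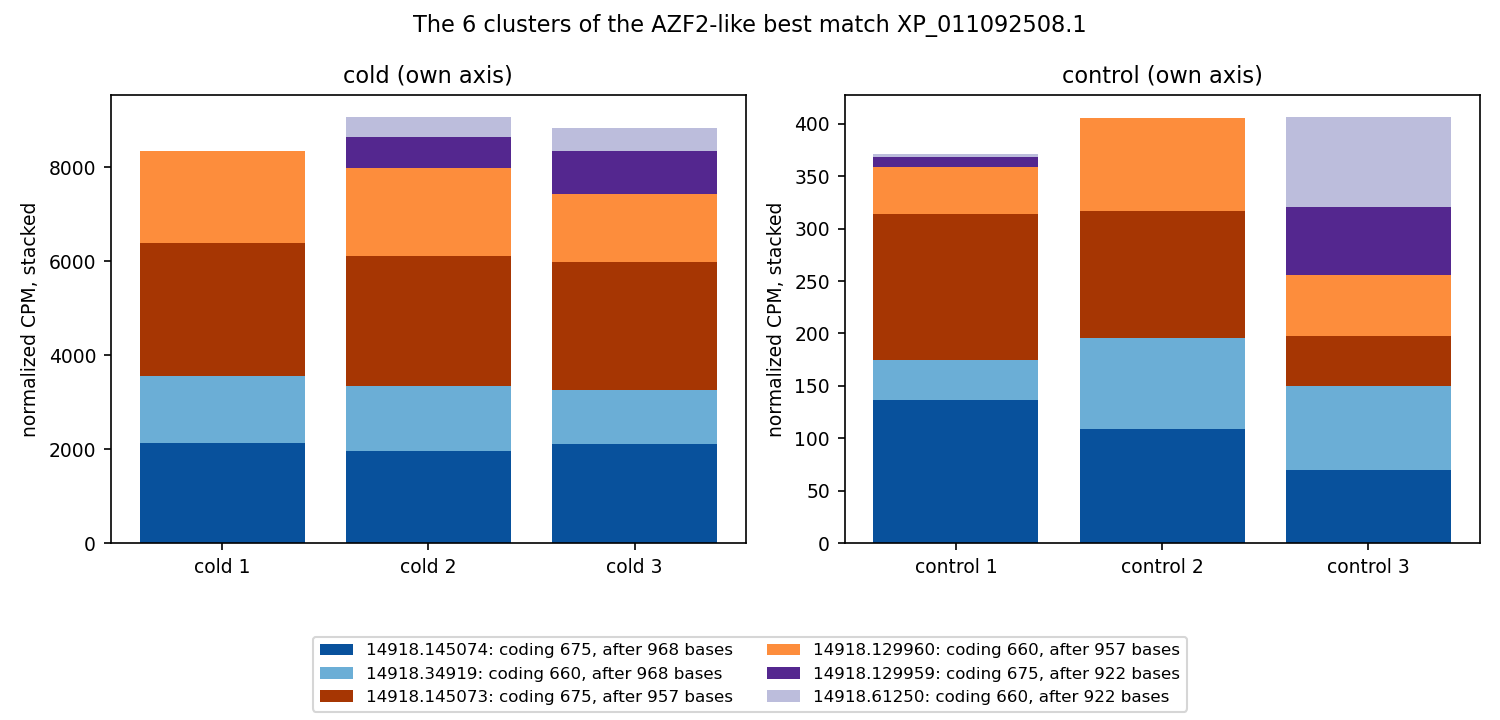
Stacked normalized CPM (scale of the cluster fit) of the 6 clusters of AZF2-like XP_011092508.1 in each library, cold on the left and control on the right, each panel with its own axis from 0. The totals are 8350 to 9078 in cold and 371 to 407 in control, and the clusters with 922 bases after the coding region are nearly missing from cold replicate 1 and from control replicates 1 and 2.

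The 4 clusters with the longer ends all rose. Cluster-14918.145073 had 2829, 2767 and 2726 normalized CPM in cold, against 138, 121 and 48.4 in control (log2FC 4.76, SE 0.41, adjusted p = 0.000372). Cluster-14918.145074 had 2128, 1969 and 2118 in cold, against 136, 109 and 70.2 in control (4.30, SE 0.26, adjusted p = 8.6e-05). In both, control replicate 3 was the lowest control library, and no control library came near the cold ones. Cluster-14918.129960 had 1953, 1875 and 1451 in cold, against 45.5, 88.0 and 57.9 in control, log2FC 4.78 (SE 0.29, adjusted p = 9.31e-05). Cluster-14918.34919 had 1428, 1372 and 1144 in cold, against 38.8, 87.1 and 79.4 in control, log2FC 4.25 (SE 0.33, adjusted p = 0.000237). All 4 calls were kept whichever library was left out.

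The clusters with 922 bases after the coding region varied widely between libraries of a group. Cluster-14918.129959 had 6.65, 662 and 900 normalized CPM in cold, against 8.63, 0 and 65.1 in control. Cluster-14918.61250 had 5.10, 434 and 507 in cold, against 3.18, 0 and 85.8 in control. Cold replicate 1 lay within the range of the control libraries in both, the groups overlapped, and neither passed the test (log2FC 4.40 with adjusted p = 0.123, and 3.41 with adjusted p = 0.237). This pair took 0.141%, 12.1% and 15.9% of the counts of the best match in cold replicates 1, 2 and 3, and 3.19%, 0% and 37.1% in control replicates 1, 2 and 3. The sum over all 6 varied by far less than either cluster, with an SD of 414 about 8993 in cold and of 15.7 about 370 in control. The 3 clusters with the 675-base coding region held 59.4%, 59.5% and 64.9% of the counts in cold, against 76.4%, 56.8% and 45.2% in control. Those shares overlap between the groups, and no shift between the coding forms was seen beyond the spread of the control libraries.

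Another AZF2-like protein of Sesamum indicum, XP_011088065.1, is the best match of 4 clusters. Its sum was 1104, 1220 and 1250 normalized CPM in cold, against 714, 685 and 638 in control (mean 1192 ± 77.3 and 679 ± 38.4, SD, n = 3 each). The groups did not overlap, and log2FC was 0.81 (SE 0.07, adjusted p = 1.08e-05). Cluster-14918.102090, with an NR score of 687 and a coding region of 894 bases, accounted for 91.5% to 92.7% of these counts in cold and 76.6% to 80.4% in control. It alone had 999, 1082 and 1131 normalized CPM in cold, against 600, 563 and 549 in control, log2FC 0.91 (SE 0.07, adjusted p = 0.000276). Each cold library was higher than each control library. Cluster-42857.0, the 1 cluster whose Swissprot match is ZAT10, had 3.09 to 6 counts in a cold library and 4.03 to 8 in a control library, too few to be tested.

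The remaining clusters of that best match resemble those of another. Cluster-14918.71667 and Cluster-14918.167957, both matched to XP_011088065.1, and Cluster-14918.65203 and Cluster-14918.65204, matched to a Genlisea aurea protein EPS57971.1, share an NR score of 273 and a coding region of 630 bases, and in 3 of the 4 it begins after 548 bases. Cluster-14918.65204 had 73.8, 61.8 and 78.8 normalized CPM in cold, against 23.7, 19.9 and 45.2 in control (log2FC 1.28, SE 0.41, adjusted p = 0.0477). Cluster-14918.65203 had 67.9, 21.7 and 63.6 in cold, against 14.7, 10.7 and 10.2 in control (2.13, SE 0.56, adjusted p = 0.0253). Both were higher in cold without overlap, although cold replicate 2 of Cluster-14918.65203 was close to the control libraries. Cluster-14918.167957 went the other way, with 27.3, 47.7 and 13.9 in cold, against 102, 103 and 77.9 in control (-1.68, SE 0.50, adjusted p = 0.0370). Cluster-14918.71667 had 48.1, 44.2 and 69.9 in cold, against 44.7, 65.5 and 49.4 in control, with a log2FC of 0.02 (adjusted p = 0.961). Summed over the 4, a grouping chosen after their values were seen and therefore not tested, the level was 206 ± 27.1 in cold and 189 ± 8.95 in control (SD, n = 3 each). The cold libraries ran from 175 to 226 and the control libraries from 183 to 199, so the groups overlapped. The sum over EPS57971.1 alone was 145, 86.1 and 146 in cold, against 36.4, 28.6 and 51.8 in control (log2FC 1.69, SE 0.30, adjusted p = 0.00125). That sum does not hold Cluster-14918.167957, which counts toward XP_011088065.1. Each of the 3 cluster calls depended on single libraries. Leaving out any library except cold replicate 2 ended the call of Cluster-14918.65203 (adjusted p from 0.0668 to 0.0958) and that of Cluster-14918.167957 (0.0538 to 0.106). Leaving out any library except control replicate 3 ended that of Cluster-14918.65204 (0.0849 to 0.151), and so did the reads of the whole library as the scale (0.0851).

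**Figure D3:**
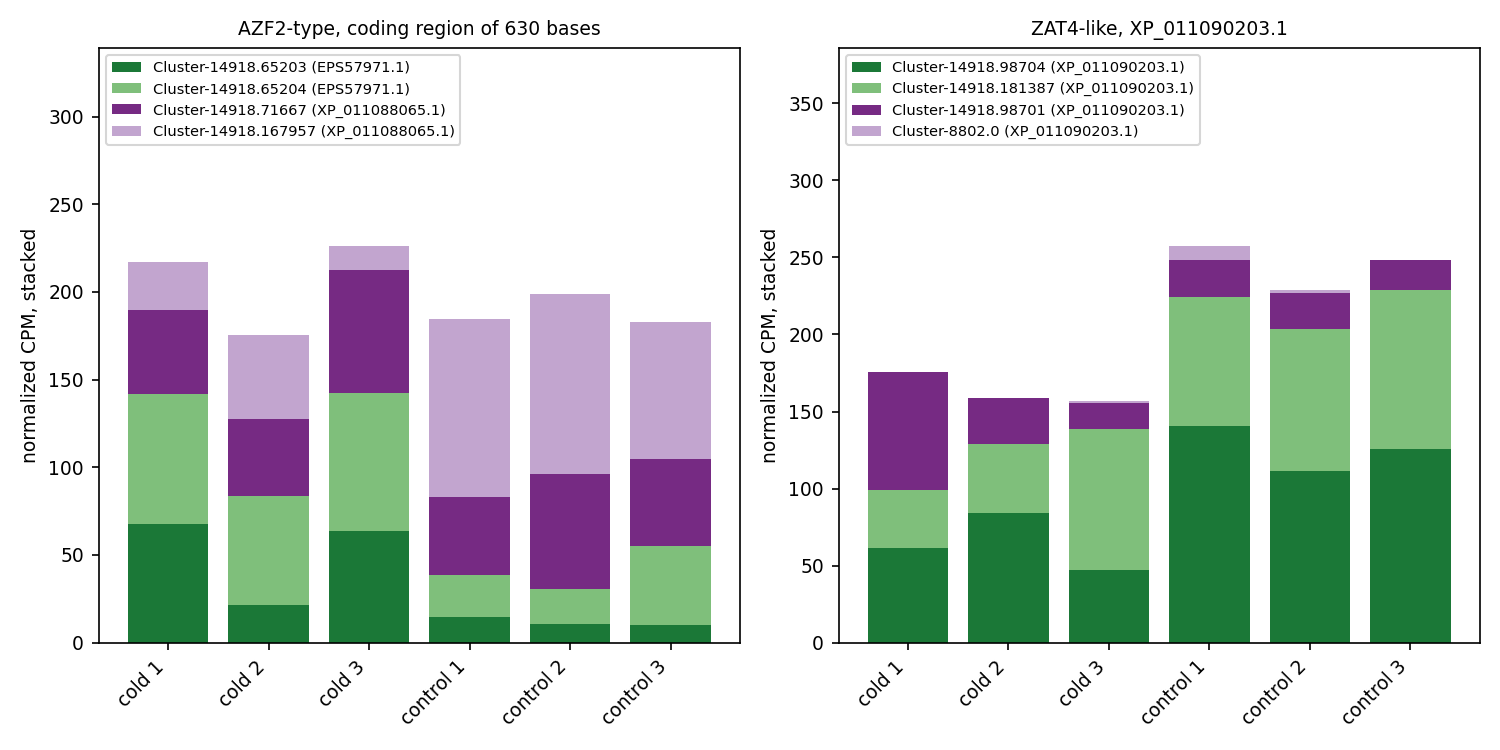
Stacked normalized CPM by library for the 4 AZF2-type clusters with a coding region of 630 bases (left) and the 4 clusters of ZAT4-like XP_011090203.1 (right), cold libraries left of control libraries in each panel. On the left the totals overlap, from 175 to 226 in cold and from 183 to 199 in control, while the single clusters differ in opposite directions; on the right every cold total, 157 to 176, lies below every control total, 229 to 257.

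The last AZF2-type cluster, Cluster-14918.133529, is a fragment of 202 bases whose best match is a zinc finger protein of the mangrove Bruguiera gymnorhiza. It had 11, 15 and 21 counts in cold, against 90, 100 and 111 in control. In normalized CPM this was 22.4 ± 6.13 in cold and 87.3 ± 6.74 in control (SD, n = 3 each) and it fell by 1.95 on the log2 scale (SE 0.32, adjusted p = 0.00473). Its FPKM, 193 ± 47.8 in cold and 1361 ± 60.6 in control, cannot be set beside those of other clusters, because the authors' FPKM takes 231 to 250 bases off the length of a long cluster and this one is shorter than that. AZF2-type clusters were thus called in both directions.

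The ZAT12-like match was lower in cold. XP_011091501.1, a ZAT12-like protein of Sesamum indicum, has 2 clusters here, whose closest Swissprot entry is ZAT11, a nuclear factor of root growth and nickel tolerance in Arabidopsis. Its sum was 360, 377 and 306 normalized CPM in cold, against 502, 574 and 510 in control. Every cold library lay below every control library. The mean was 348 ± 37.2 in cold and 529 ± 39.4 in control (SD, n = 3 each) and it fell by 0.61 on the log2 scale (SE 0.09, adjusted p = 0.000597). Nearly all of it came from Cluster-14918.120935, which had 351, 366 and 299 in cold, against 529, 609 and 514 in control (log2FC -0.70, SE 0.12, adjusted p = 0.00521). The other cluster, Cluster-14918.113291, had 0 counts in every cold library and 0, 8.53 and 36.96 counts in control replicates 1, 2 and 3. Against a floor of 3 counts over the cold group its observed control level was 9.13-fold higher. That ratio leaves out the counting error of the control counts and rests mostly on control replicate 3, and the groups met at 0. By length-scaled level this was the most abundant ZAT-type match in control, with 70.7 ± 5.43 FPKM, followed by AZF2-like XP_011088065.1 with 27.5 ± 1.52, AZF2-like XP_011092508.1 with 14.4 ± 0.63, ZAT4-like XP_011090203.1 with 12.4 ± 1.04 and ZAT5 XP_012838585.1 with 10.8 ± 0.71, the last pair of which overlapped. In cold the order was AZF2-like XP_011092508.1 with 269 ± 10.2 FPKM, then AZF2-like XP_011088065.1 with 38.1 ± 2.22 and the ZAT12-like match with 35.2 ± 3.73, which did not differ from each other beyond their spread. In both orders the fragment of 202 bases was left out.

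**Figure D4:**
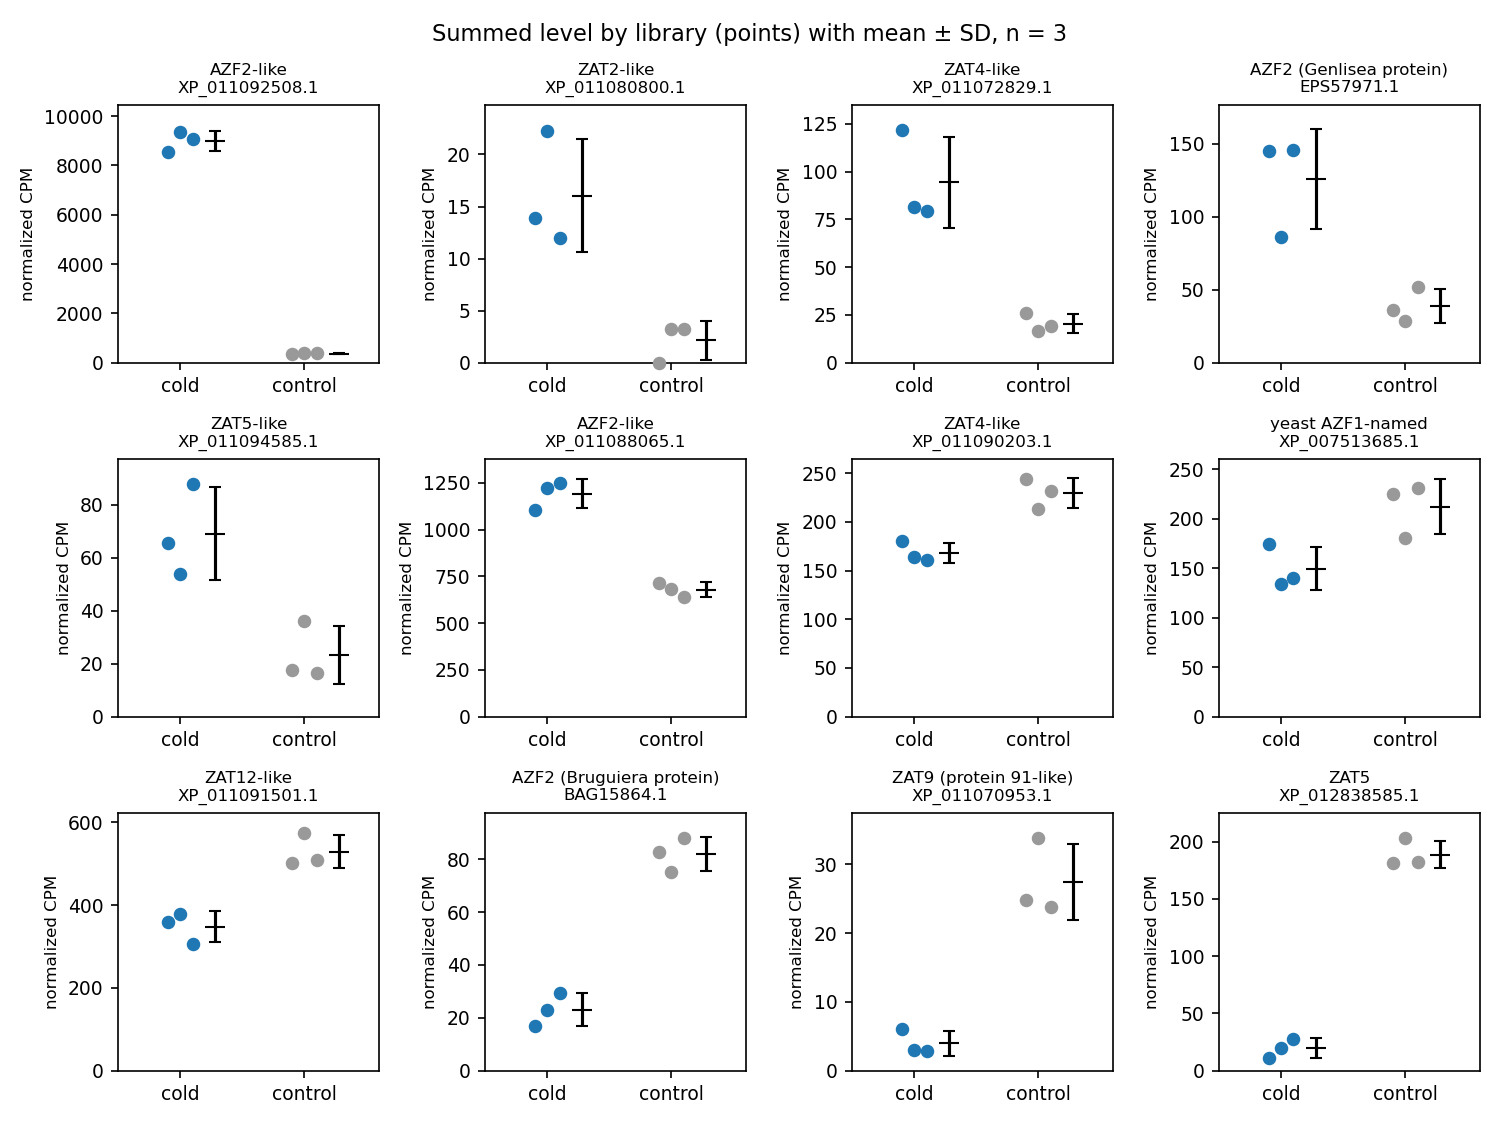
Normalized CPM of the 12 best matches that passed the test, summed over their clusters, for each library (points) with the mean and SD beside them (n = 3 each), cold left of control; every axis starts at 0. In all 12 panels the cold and control points do not overlap, from AZF2-like XP_011092508.1 (8993 in cold, 370 in control) to ZAT5 XP_012838585.1 (19.5 in cold, 189 in control). The panels were chosen by that test, so this is no further result. Of all sums tested 77.8% did not overlap.

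The matches to ZAT5 went in opposite directions. ZAT5 of Erythranthe guttatus, XP_012838585.1, was matched by Cluster-14918.111582 alone, which had 7, 13 and 20 counts in cold, against 197, 270 and 230 in control. Its level was 10.4, 19.3 and 27.3 normalized CPM in cold, against 191, 218 and 195 in control, the largest decrease among the tested ZAT-type clusters. It fell by 3.39 on the log2 scale (SE 0.39, adjusted p = 0.00111), and with any 1 library left out by 3.10 to 3.74. ZAT5-like XP_011094585.1, matched by Cluster-14918.31946, had 64.0, 52.0 and 85.9 normalized CPM in cold, against 18.5, 38.7 and 17.8 in control. It was higher in cold without overlap, by log2FC 1.42 (SE 0.46, adjusted p = 0.0478). This call was lost when any library except control replicate 2 was left out (adjusted p from 0.0703 to 0.152), and with the reads of the whole library as the scale (0.0798). In the fit of sums, where the spread over all features was smaller, the same counts had a log2FC of 1.55 (adjusted p = 0.00754), a call kept whichever library was left out. ZAT5 of Sesamum indicum, XP_011077299.1, had 3 short clusters with 7, 5 and 9 counts in all in the cold libraries, against 2, 5 and 3 in the control libraries, too few to be tested.

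ZAT4, ZAT9, ZAT1 and ZAT2 account for the rest of the plant matches. ZAT4-like XP_011072829.1, matched by Cluster-14918.7410 with 80, 53 and 57 counts in cold, against 28, 22 and 24 in control, was higher in cold. Its normalized CPM was 119, 78.8 and 77.7 in cold, against 27.2, 17.7 and 20.3 in control, without overlap (log2FC 2.07, SE 0.34, adjusted p = 0.00484). Another ZAT4-like match, XP_011090203.1, was lower. Its 4 clusters summed to 180, 164 and 161 in cold, against 244, 213 and 232 in control, with the cold libraries all below the control libraries. The sum fell by 0.45 on the log2 scale (SE 0.10, adjusted p = 0.00468).

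Within XP_011090203.1 the reads were divided unevenly. Cluster-14918.98704 had 61.1, 83.9 and 47.4 normalized CPM in cold, against 141, 112 and 126 in control (log2FC -0.98, SE 0.28, adjusted p = 0.0343), a call lost when any library except cold replicate 2 was left out (0.0621 to 0.0923). Cluster-14918.181387 had 38.2, 44.9 and 91.2 in cold, against 83.5, 92.1 and 103 in control, where cold replicate 3 met the control libraries (adjusted p = 0.225). Cluster-14918.98701 had 76.3, 30.3 and 16.8 in cold, against 24.3, 23.4 and 19.4 in control (adjusted p = 0.331). Its share of the best match was 43.5%, 19.0% and 10.7% in cold replicates 1, 2 and 3 and 7.80% to 10.2% in control. As with AZF2-like XP_011092508.1, the sum was steadier between libraries than its clusters, with an SD of 10.2 about 168 in cold and of 15.5 about 230 in control.

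ZAT9 was the name of Cluster-14918.168503, whose NR match is a zinc finger protein 91-like of Sesamum indicum. It had 4, 2 and 2 counts in cold, against 27, 45 and 30 in control. The level was 3.88 ± 1.80 normalized CPM in cold and 29.3 ± 6.04 in control (SD, n = 3 each) and it fell by 2.88 on the log2 scale (SE 0.55, adjusted p = 0.00787). With so few cold counts the exact 95% interval of the count ratio ran from 0.0547 to 0.266. ZAT2-like XP_011080800.1, a pair of clusters too low to be tested singly, summed to 9.12, 14.5 and 8.60 counts in cold, against 0, 4.29 and 4.04 in control. The groups did not overlap, and the log2FC of the sum was 2.87 (SE 0.82, adjusted p = 0.0142), with adjusted p = 0.0779 when cold replicate 2 was left out. With any control library left out it no longer had enough counts to be tested. Cluster-1796.0, matched to ZAT1, had 3, 2 and 2 counts in cold and 0 in every control library. Set against 3 counts over the whole control group, the limit that a count of 0 allows, its observed cold level was 3.87-fold higher. That ratio leaves out the counting error of the few cold counts, and the cluster was not tested. The clusters matched to ZAT4 through 2 Coffea canephora proteins, Cluster-14918.8070 and Cluster-14918.15154, did not pass (log2FC 0.24 with adjusted p = 0.818, and 0.62 with adjusted p = 0.312). They have coding regions of 1371 and 1338 bases between equal stretches of 586 and 315 bases.

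The yeast AZF1-named clusters were both at a lower mean in cold. Cluster-14918.83855 had 171, 124 and 135 normalized CPM in cold, against 236, 190 and 247 in control, and fell by 0.65 on the log2 scale (SE 0.19, adjusted p = 0.0391). That call was kept when cold replicate 1 or control replicate 2 was left out and lost when any other library was (0.0895 to 0.108). Cluster-14918.83857 had 31.7, 68.3 and 103 in cold, against 152, 187 and 83.1 in control, where the groups overlapped (log2FC -1.05, adjusted p = 0.161). Their coding regions differ by 90 bases between equal stretches on both sides. The sum over the best match of Cluster-14918.83855, XP_007513685.1, had 175, 134 and 140 in cold, against 226, 180 and 231 in control, and fell by 0.51 on the log2 scale (adjusted p = 0.0175). The same libraries ended this call (0.0560 to 0.0603). Without these best matches, a choice made after the data were seen, 6 sums were higher and 5 lower of 13 tested.

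The factors named with ZAT genes in Arabidopsis were read from the same table. The list of other factors that Arabidopsis induces early in cold (DREB1/CBF, ERF5, RAV1, MYB44, HSFC1, WRKY33, WRKY40 and the CCCH proteins 29 and 47) gave 37 tested sums, of which 15 were higher and 20 lower, with a median log2FC of -1.16. Beside this and the counts below, 34.6% of all 2296 sums tested were called higher and 37.7% lower. DREB1/CBF factors, the activators of the cold regulon, were split, with 6 of 10 tested sums higher and 4 lower. The DREB1B-like match XP_011101172.1 averaged 4523 normalized CPM in cold and 38.5 in control (log2FC 6.89, SE 0.09, adjusted p = 4.18e-10). Both HSFC1 matches were higher, and XP_011078395.1 averaged 6521 in cold and 46.5 in control (7.11, SE 0.08, adjusted p = 2.87e-10). ERF5, WRKY33 and WRKY40 had no sum higher, and 3 of 3, 2 of 2 and 3 of 4 tested sums lower, where 1 WRKY33 match carries its name in Swissprot only and is an F-box protein in NR. MYB44 had 6 of 11 tested sums higher and 4 lower. The lower sums at -2.03, -1.60 and -1.06 and the higher sum at 0.64 carry the name MYB44 in Swissprot only. RAV1 had 1 of 2 in each direction, at 0.21 and -1.60. The 0.21 is less than the gap between the medians of all sums under the 2 scales named above. All 3 tested sums of the CCCH proteins were lower. Of 7 tested sums of regulators placed upstream of ZAT genes in Arabidopsis, 2 were higher and 5 lower. All 3 CAMTA sums, calmodulin-binding activators, were lower, with log2 fold changes of -2.35, -1.70 and -1.38. The matches to ICE1, the bHLH activator of CBF genes, went both ways, at 1.11 and -0.95, and so did those to HSFA4, at 0.26 and -1.42, although 0.26 is less than the gap between the medians under the 2 scales named above. Of these names ERF6 and MYB73 were held by no cluster.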

How the data were processed

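Leaf RNA was sequenced in 6 libraries, grouped by their labels. The authors deposited 1 table of transcription factors and regulators, with 10251 lines for 9740 clusters. Lines of 1 cluster repeat its values, and each cluster entered once. The authors deposited estimated counts without normalization, partly fractional, which were rounded for testing. The FPKM deposited by the authors is relative to cluster length and library reads. The NR score deposited by the authors rates the best protein match. The table also holds the authors' log2 ratio, q value and call, which were not used. The submitters' processing notes name Bowtie2 2.0.6 and TopHat2 2.0.12 without a role, and which program assembled or counted is not given in the sources used here.

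Whole-library totals were worked out from count, FPKM and length over clusters with at least 5 FPKM (13074355 to 14319249 reads in cold, 16947851 to 20692658 in control). In CPM of the whole library, 3 counts, the limit that a count of 0 allows, are 0.210 to 0.229 in cold and 0.145 to 0.177 in control. These limits and all intervals are for counting error alone. Testing was done with edgeR 4.0.16 in R 4.3.3 (quasi-likelihood, TMM factors, filterByExpr at 10 counts, condition alone as a term, Benjamini-Hochberg adjustment, threshold 0.05), on 5004 clusters and on 2296 sums over clusters with the same NR match. The common coefficient of variation between replicate libraries was 0.639 in the fit of clusters and 0.157 in the fit of sums. The SE was taken as log2FC divided by the root of F. Sums used all clusters of an NR match, which adds 1 cluster outside the members to each yeast AZF1-named match. The fits were also run on simulated counts with 200 changed features. Those counts were drawn for each feature on its own, so reads divided between clusters were not simulated.

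Alternatives were DESeq2 1.42.0, RLE factors, table totals, totals of the whole library, dropping the filter, a stricter filter, limma 3.58.1 on log2(FPKM + 1) or log2(FPKM + 0.1), a block for replicate number, leaving out each library, stricter thresholds, membership by NR or by Swissprot name alone, and sums by Swissprot name. The members and gene lists were chosen with earlier results of these data known. Values are given for each member past the threshold in either fit and for the 3 clusters and 3 sums with the highest mean. Nearest patterns are the 3 other sums best correlated with the most abundant one.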

Additional observations from a re-analysis of the deposited data

How the results depend on the processing

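When counts were summed by Swissprot name instead of NR match, 2 sums were higher in cold instead of 6 and 4 were lower. By construction, 3 of those 6 matches share the name AZF2 and fall into 1 sum, and the ZAT2-like match has no Swissprot name and drops out. Over all 1703 tested sums by Swissprot name, 615 were higher and 640 lower. Named by the NR description alone, 4 member clusters and 3 sums were lower in cold instead of 7 and 6. A log2 fold change of at least 1 left 4 clusters and 3 sums lower, an adjusted p under 0.01 left 4 clusters lower, and no filter on low counts left 4 clusters lower. Without the filter, 918 of all 9209 tested clusters were higher and 1093 lower. The replicate number as a block left 3 clusters lower and 6 higher, and over all tested clusters 640 higher and 671 lower against 1094 and 1182. Same-numbered cold and control libraries deviated from their group means with correlations of -0.03, -0.01 and -0.01 over clusters. No pairing by number was seen in these values. They cannot settle whether the libraries were paired, because noise from reads divided between clusters could hide it. With each library left out in turn, 6 to 7 clusters were higher and 4 to 6 lower, the lowest number lower being 4 without control replicate 1 or control replicate 3, and 5 to 6 sums were higher and 5 to 6 lower. In the same fits 925 to 984 of all 5401 to 5746 tested clusters were higher and 960 to 1240 lower. Of all 2363 to 2473 tested sums, 754 to 794 were higher and 785 to 860 lower. No named value changed sign under any alternative. Of the alternatives for the named clusters 48 lost the call and 192 kept it, and for the named sums 5 lost it and 171 kept it. The ZAT2-like sum could not be tested with the stricter filter or with any control library left out, and those alternatives are in neither count. Except where stated, the cause of these changes was not tested. The 9 members that did not pass the filter on low counts held 3.66 to 45.5 counts over the 6 libraries together and could not be tested by cluster. Replicates of a group differed by more than sampling noise, with a chi-square per cluster between 13.4 and 15.5 where counts were fractional and between 3.12 and 6.89 where all were whole.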

Other observations

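The sums with the pattern most like that of AZF2-like XP_011092508.1 over the 6 libraries, among 2281 other sums, were heat stress factor A-3 (XP_012836096.1), the BTB/POZ and TAZ domain protein 1 (XP_011072007.1) and the Dof zinc finger DOF5.4-like (XP_011078663.1). They averaged 450, 5362 and 1648 normalized CPM in cold, against 19.9, 164 and 117 in control, with log2 fold changes of 4.47, 5.02 and 3.81. The likeness was a Pearson correlation of log2 levels of 0.9999 each, which is set almost wholly by the gap between the groups.

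Among other factors of the oxidative stress response, 7 sums were tested, 1 was higher and 3 were lower in cold, with a median log2 fold change of -1.01. Over all sums tested 34.6% were called higher and 37.7% lower. Both WRKY70 matches, regulators between salicylate and jasmonate signalling in Arabidopsis, were lower, at -2.22 and -1.78. The matches to JUNGBRUNNEN 1, a NAC factor that limits hydrogen peroxide in Arabidopsis, stood at 0.43 and -1.90 where they passed the test and at 0.12 where they did not. No cluster carried the name MBF1c or WRKY25.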
